A study of Homo sapiens with 18 samples.

Results

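FAM219A and SASH1 were the genes with the largest rises in K562 cells given gapmers against circPCMTD1, and they are described here with their closest relatives in the human genome, FAM219B, SASH3 and SAMSN1. The 5 genes are 5 of 27781 in the deposited table of read counts. FAM219A and SASH1 were chosen from their own change in this comparison, so that change is given as a description with no test. FAM219B, SASH3 and SAMSN1 were taken as relatives and not for their values.

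K562 is a human leukemia line with the BCR-ABL1 fusion. A gapmer is a short antisense DNA with modified ends, and RNase H cuts the RNA that it binds. The knockdown cells were transfected with gapmers against the junction that closes circPCMTD1 into a circle, an RNA made from PCMTD1 exons, and the scrambled cells with gapmers of scrambled sequence. The treatment text speaks of gapmers, while a short label of each library says siRNA. Cells of both groups were harvested after 48 hours, and total RNA was sequenced after depletion of ribosomal RNA. The 18 libraries fall into 3 replicates of 3 libraries in either group. The first number of a library's name was taken as the biological replicate, which the labels do not state, and its 3 libraries were summed. All samples are of a single cell line, and nothing says that the replicates came from separate cultures, so the p-values measure only the spread between these samples.

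SASH1, SASH3 and SAMSN1 form a small family of adaptor proteins with an SH3 domain and a SAM domain, modules that bind other proteins and have no catalytic activity. SASH1 is a scaffold in Toll-like receptor signalling, where it brings TRAF6, the kinase TAK1 and the IκB kinases together, and it has been described as a candidate tumour suppressor in carcinomas. SASH3, also called SLY1, is an adaptor of lymphocytes, and SAMSN1, also called HACS1 or SLY2, is an adaptor of blood cells that restrains B-cell activation. FAM219A and FAM219B encode small proteins whose function is largely unknown.

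The coding sequences of the relatives show how far reads could be confused between them. They are shown as the 60-base stretch that matched best within each family, in GENCODE 29 transcripts on GRCh38. In the SASH family it was the SASH3 stretch with the most matches to SASH1 and SAMSN1 added together. Bases identical in all family members are in capitals. For the FAM219 genes 47 of 60 bases were identical:
FAM219A: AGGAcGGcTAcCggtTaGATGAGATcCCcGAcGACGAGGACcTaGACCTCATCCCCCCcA
FAM219B: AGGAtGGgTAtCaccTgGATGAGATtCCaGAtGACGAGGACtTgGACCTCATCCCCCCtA
The FAM219A stretch ran from coding base 434 to 493 and that of FAM219B from 464 to 523, near the end of coding sequences of 558 and 597 bases.

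For the SASH family 44 of 60 bases were identical in all 3 genes, in the part that encodes the SH3 domain:
SASH1: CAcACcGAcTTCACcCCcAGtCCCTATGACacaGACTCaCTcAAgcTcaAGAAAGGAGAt
SASH3: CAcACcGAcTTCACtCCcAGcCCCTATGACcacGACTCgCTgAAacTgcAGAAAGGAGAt
SAMSN1: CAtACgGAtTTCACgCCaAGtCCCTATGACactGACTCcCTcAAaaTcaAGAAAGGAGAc
These stretches began at coding base 1684 of 3744 in SASH1, 541 of 1143 in SASH3 and 1399 of 2010 in SAMSN1. Taken in pairs, the best stretch matched 50 of 60 bases for SASH1 and SASH3, 51 for SASH1 and SAMSN1 and 47 for SASH3 and SAMSN1. The unrelated pair FAM219A and SASH1 reached 34 of 60 bases in its best stretch. The longest run of identical coding bases was 14 in each related pair and 13 in the unrelated pair. Of all 50-base stretches in the members' transcripts, 0 were shared between any members, and the 3923 stretches of FAM219A occurred in no other GENCODE gene. For SASH1 0.435% of 11274 stretches occurred in another gene, for SAMSN1 0.778%, for SASH3 2.63% and for FAM219B 37.2%. The FAM219B stretches were nearly all those of MPI, a mannose phosphate isomerase gene that overlaps it by 2233 bases on the opposite strand.

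FAM219A lies on chromosome 9 from 34398184 to 34458570 on the minus strand of GRCh38 (GENCODE 29). Its first base stands back to back with an annotated start of DNAI1, a gene for a dynein of motile cilia, at 34458752 on the plus strand. Another DNAI1 transcript reaches into FAM219A, which DNAI1 overlaps by 1157 bases. The 181 bases between these starts, chr9:34458571-34458751, are printed on the minus strand from the RefSeq promoter table (GRCh38.p14), because they are the shared upstream region of the gene with the largest rise:
FAM219A upstream: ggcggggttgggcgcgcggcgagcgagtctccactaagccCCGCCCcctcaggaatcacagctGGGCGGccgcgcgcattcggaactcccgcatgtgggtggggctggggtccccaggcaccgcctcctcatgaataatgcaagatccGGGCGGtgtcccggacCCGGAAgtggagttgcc
Capitals mark the matches of 5 motifs searched on both strands, none of them overlapping here. The GC box GGGCGG matched at 141, 118 and 33 bases before the start, the first on the other strand, and was present in 39.0% of 35116 RefSeq windows of that length. The ETS core CCGGAA matched 17 bases before the start, against 12.3% of windows. The letters AGATAA (a site of erythroid zinc-finger factors, 6.40% of windows), CCAAT (26.3%) and TATAAA (7.87%) were not in the window. The window held 18 CG dinucleotides, and 25.6% of windows held as many or more. SASH1, which lies on chromosome 6 from 148272304 to 148552050 on the plus strand, has 4 RefSeq starts, and none of their windows of 181 bases held any of the 5 motifs. Their CG dinucleotides numbered 3, 14, 2 and 2 in the order of transcription.

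The libraries held 19118533 to 29432699 counts each and the summed replicates 63851576 to 76087774. PCMTD1, the host gene of the targeted RNA, had 12.6, 11.7 and 12.5 CPM in the knockdown replicates, against 20.0, 19.8 and 21.9 CPM in the scrambled replicates. All 9 knockdown libraries lay below all 9 scrambled libraries. Of all tested genes, 16.5% had summed knockdown replicates below the scrambled range. The PCMTD1 count adds circular and linear RNA. Of 15678 genes tested in edgeR's quasi-likelihood test, 1745 were raised (11.1%) and 1175 lowered (7.49%) at an adjusted p below 0.05, together 18.6%. With a correction for GC content they were 2389 and 2670. The labels call the cells lymphoblasts. Of 15 lymphoid marker genes 6 passed the count filter, and MS4A1 and CD5 had 0 counts in all libraries. The summed level of all 15 was 21.9 to 23.0 CPM in knockdown and 18.02 to 18.41 CPM in scrambled replicates. Of 10 erythroid markers all were tested, with summed levels of 13812 to 14610 CPM in knockdown and 13225 to 13470 CPM in scrambled replicates. Among the lymphoid markers, CD3D and RAG1 were raised, with log2 fold changes of 0.46 and 0.26 and adjusted p of 7.63e-05 and 0.00654 in edgeR. Among the erythroid markers 4 were raised and 1 lowered. The embryonic globin genes HBZ and HBE1 had log2 fold changes of 0.30 and 0.13, and TAL1, an erythroid transcription factor gene, had -0.13 (edgeR, adjusted p = 1.15e-08, 0.000550 and 0.000822). When a replicate was left out, 2 to 7 erythroid markers were raised, with 2 in every such setting except that without knockdown replicate 3. Their part in the results below was not tested.

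FAM219A was the gene with the highest log2 fold change of all 15678 tested. Its raw counts were 218, 292 and 205 in the libraries of knockdown replicate 1, 183, 211 and 191 in those of replicate 2 and 212, 186 and 198 in those of replicate 3. In scrambled cells they were 43, 35 and 26 in the libraries of replicate 1, 24, 23 and 32 in replicate 2 and 33, 23 and 30 in replicate 3. The lowest knockdown count was thus 183 and the highest scrambled count 43, and the groups did not overlap in any library. Of all tested genes, 34.6% had summed replicates that did not overlap between the groups, 18.1% with knockdown above scrambled. Such a share was not computed for single libraries, which are read here as technical repeats within a replicate. For FAM219A and SASH1 the separation goes with their choice as the largest rises. On the CPM scale FAM219A had 10.2, 9.14 and 9.20 CPM in the knockdown replicates, against 1.38, 1.12 and 1.28 CPM in the scrambled replicates. The means were 9.52 ± 0.601 CPM in knockdown and 1.26 ± 0.130 CPM in scrambled cells (SD, n = 3 summed replicates each), a 7.55-fold difference. As these are bulk samples, more RNA per cell and more cells with the RNA cannot be told apart.

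SASH1 was second. Its raw counts were 247, 286 and 213 in the libraries of knockdown replicate 1, 227, 226 and 193 in replicate 2 and 230, 219 and 238 in replicate 3. In scrambled cells they were 53, 59 and 39, then 57, 43 and 57, then 42, 75 and 40, in the same order. Here too every knockdown library lay above every scrambled library. SASH1 had 10.7, 10.1 and 10.6 CPM in the knockdown replicates, against 2.00, 2.23 and 2.33 CPM in the scrambled replicates. The means were 10.5 ± 0.312 CPM in knockdown and 2.19 ± 0.171 CPM in scrambled cells (SD, n = 3 each), a 4.79-fold difference.

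The log2 fold changes were 2.92 (SE 0.091) for FAM219A and 2.26 (SE 0.076) for SASH1. Of the 15678 genes tested, 1 had a larger log2 fold change than SASH1, namely FAM219A. The gene just outside the choice was USP40, a deubiquitinase gene, with 32.6 ± 0.475 CPM in knockdown and 9.43 ± 0.558 CPM in scrambled cells and a log2 fold change of 1.79. FAM219A and SASH1 averaged 5.39 and 6.32 CPM over the 6 samples, near the minimum of 5 CPM by which they were chosen. Their scrambled means of 1.26 and 2.19 CPM lay below that minimum, so both met it only through their level in knockdown cells. Under the 15 other settings tried, FAM219A ranged from 2.84 to 2.99 and SASH1 from 2.20 to 2.31 on the log2 scale. Those settings, like the SEs, use the libraries from which the 2 genes were chosen. They describe the dependence on processing and are no independent support for the rises.

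**Figure D1:**
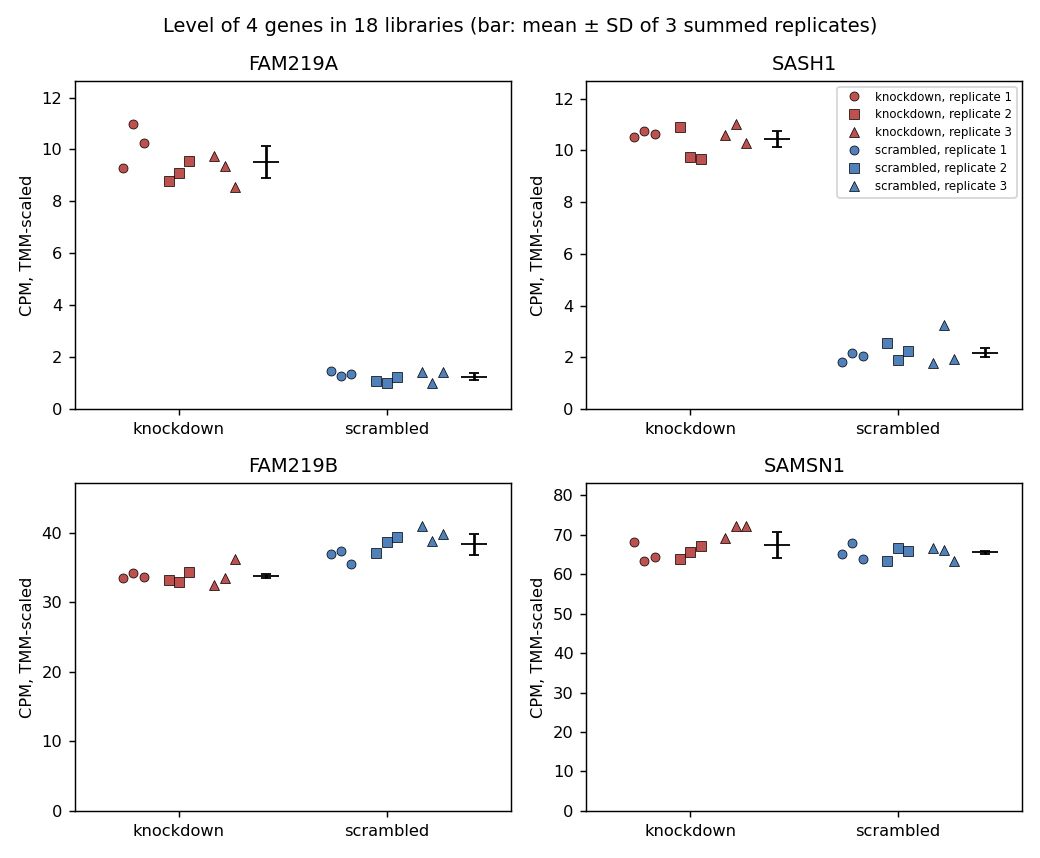
CPM of FAM219A, SASH1, FAM219B and SAMSN1 in the 9 knockdown and 9 scrambled libraries, each with its own vertical axis from 0; symbols mark the biological replicate and the black bar is the mean ± SD of 3 summed replicates. FAM219A and SASH1 lie at 8.56 CPM or more in knockdown libraries and at 3.24 CPM or less in scrambled libraries, while SAMSN1 overlaps between the groups.

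The spread between libraries was set against counting error. The variance between technical libraries, divided by the variance that Poisson counting gives, was 0.781 for FAM219A and 1.5 for SASH1. Between the 3 summed replicates this ratio was 2.57 in knockdown and 0.966 in scrambled cells for FAM219A, and 0.607 and 0.972 for SASH1. In FAM219A, knockdown replicate 1 was the highest of the knockdown replicates. In SASH1, scrambled library 3_2 stood above the other scrambled libraries at 3.24 CPM.

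**Figure D2:**
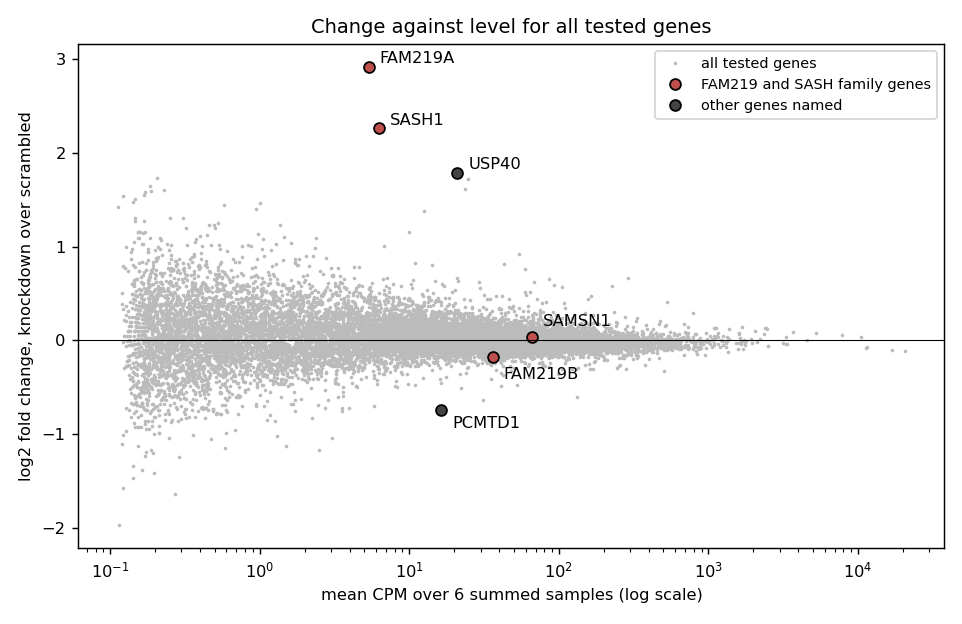
Log2 fold change of knockdown over scrambled against mean CPM (log scale) for all 15678 tested genes, with the FAM219 and SASH family genes in red and USP40 and PCMTD1 in dark grey. FAM219A at 2.92 and SASH1 at 2.26 lie above all other points, FAM219B at -0.18 below the zero line and SAMSN1 at 0.040 on it.

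FAM219B, the relative of FAM219A, was lower in knockdown cells. FAM219B lies on chromosome 15 from 74899987 to 74907121 on the minus strand. It had 33.8, 33.5 and 34.1 CPM in the knockdown replicates, against 36.8, 38.5 and 39.9 CPM in the scrambled replicates. The groups did not overlap, as was the case below the scrambled range for 16.5% of tested genes, and 8 of 9 knockdown libraries lay below all scrambled libraries. The means were 33.8 ± 0.331 CPM in knockdown and 38.4 ± 1.51 CPM in scrambled cells (SD, n = 3 each). FAM219B fell by 0.18 on the log2 scale, with an SE of 0.038, a 95% interval of -0.26 to -0.10 (edgeR, adjusted p = 0.00164). Of the 1175 lowered genes, 394 fell by more. Whether reads were assigned by strand is not given in the sources used here, so reads of MPI could be counted with FAM219B. MPI had 32.5 ± 0.404 CPM in knockdown and 30.1 ± 1.22 CPM in scrambled cells, and its log2 fold change of 0.11 had an adjusted p of 0.0627 in edgeR.

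In the FAM219 pair, FAM219A took 21.9% ± 1.06 of the summed level per kilobase of exon in knockdown cells and 3.17% ± 0.390 in scrambled cells (SD, n = 3 each). The summed level was 11.7, 11.3 and 11.5 CPM per kilobase in the knockdown replicates, against 10.1, 10.5 and 10.9 CPM per kilobase in the scrambled replicates. The 3 knockdown sums lay above the 3 scrambled sums. FAM219A and SASH1 were chosen for their rise, which enters the sums and the shares of both pairs, so these are descriptions only. FAM219B was the more abundant of the pair in every sample. How reads in the overlap of FAM219B with MPI were counted is not known, so its level per kilobase and the shares of the pair are uncertain. In the SASH pair, SASH1 took 5.32% ± 0.234 of the summed level per kilobase in knockdown cells and 1.19% ± 0.0988 in scrambled cells (SD, n = 3 each).

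**Figure D3:**
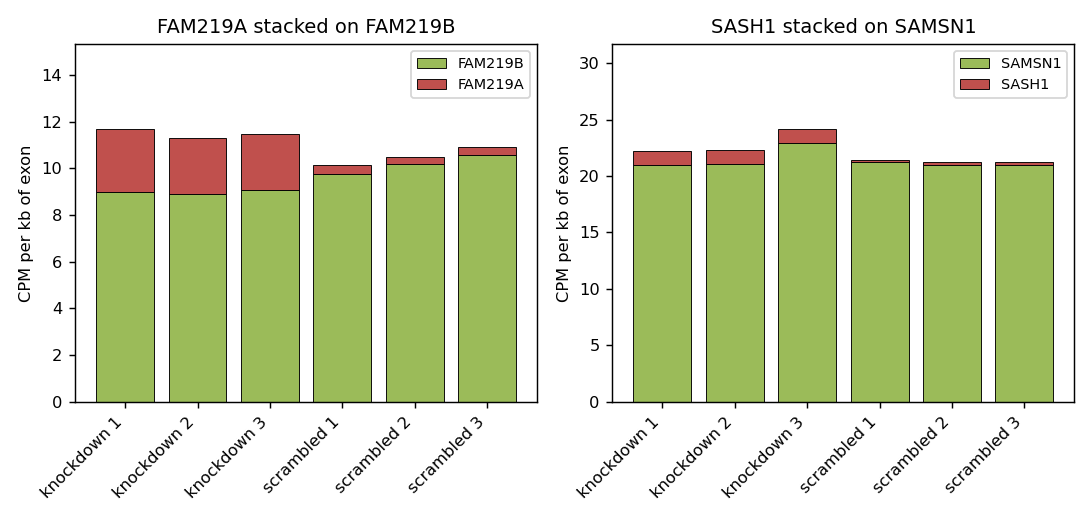
Level in CPM per kilobase of annotated exon in each summed replicate, knockdown on the left, with FAM219A stacked on FAM219B (left panel) and SASH1 stacked on SAMSN1 (right panel). FAM219A makes up 21.2% to 23.1% of its pair in knockdown replicates and 2.82% to 3.59% in scrambled replicates. How reads in the overlap of FAM219B with MPI were counted is not known.

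SAMSN1 did not pass the test. SAMSN1 lies on chromosome 21 from 14485228 to 14658821 on the minus strand. It had 65.3, 65.5 and 71.2 CPM in the knockdown replicates, against 66.0, 65.3 and 65.3 CPM in the scrambled replicates, and the groups overlapped. Its log2 fold change was 0.040 (SE 0.035), with a 95% interval of -0.034 to 0.11 (edgeR, adjusted p = 0.486), so a change within that interval could not be told from none. Knockdown replicate 3 stood above the rest, and the variance between knockdown replicates was 10.9 times that of Poisson counting, against 0.163 times between scrambled replicates. Without knockdown libraries 3_2 and 3_3 the log2 fold change was 0.013, with GC correction it was 0.0026, and without the whole of replicate 3 it was -0.0025. SAMSN1-AS1, which overlaps SAMSN1 on the opposite strand, had 95 counts in all knockdown and 97 in all scrambled libraries. SAMSN1 itself had 4572, 4196 and 4612 counts in the knockdown replicates, against 4983, 4607 and 4390 in the scrambled replicates.

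SASH3 was at the limit of detection. SASH3 lies on chromosome X from 129779979 to 129795201 on the plus strand. It had 0, 2 and 1 counts in the knockdown replicates, against 4, 0 and 0 counts in the scrambled replicates, and did not pass the count filter. Over the group this is 0.0151 CPM in knockdown (exact Poisson 95% interval 0.00311 to 0.0441) and 0.0187 CPM in scrambled cells (0.00511 to 0.0480), where intervals cover counting error only. A difference in SASH3 was not detectable at this depth.

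Per kilobase of exon the members kept a single order in both groups. In knockdown cells SAMSN1 stood at 21.7 ± 1.08 CPM per kilobase, FAM219B at 8.97 ± 0.0878, FAM219A at 2.52 ± 0.159 and SASH1 at 1.22 ± 0.0363 (SD, n = 3 each). In scrambled cells SAMSN1 stood at 21.1 ± 0.123 CPM per kilobase, FAM219B at 10.2 ± 0.400, FAM219A at 0.333 ± 0.0343 and SASH1 at 0.255 ± 0.0200. SASH3 came last at 0.00593 and 0.00672 CPM per kilobase in knockdown and scrambled cells. For FAM219B the level depends on how reads in its overlap with MPI were counted, which is not known. The replicate ranges of neighbours in this order did not overlap. FAM219A and SASH1, low in scrambled cells, remained below FAM219B and SAMSN1 in knockdown cells as well.

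The profiles nearest to FAM219A and SASH1 were sought among the 12674 genes that averaged at least 1 CPM. The measure was the root mean square difference, over the 6 summed samples, of log2 CPM minus the scrambled mean. Nearest to FAM219A were SASH1 (0.48), USP40 (0.79) and C1GALT1 (0.84), which encodes an enzyme that extends O-linked glycans. Nearest to SASH1 were USP40 (0.34), C1GALT1 (0.37) and the kinesin gene KIF13B (0.46). C1GALT1 had 37.9 ± 1.39 CPM in knockdown and 11.5 ± 0.706 CPM in scrambled cells, and KIF13B had 35.4 ± 0.643 and 11.6 ± 0.465 CPM in knockdown and scrambled cells. By log2 fold change USP40, C1GALT1 and KIF13B ranked 3, 5 and 7 among all tested genes. The measure holds the same change by which FAM219A and SASH1 were chosen, so genes with large rises come out near them. Shared regulation was not tested.

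Genes around FAM219A were compared as a measure that did not enter the choice. Of 13 tested genes within 500 kb of FAM219A, 2 were raised and 0 lowered, against 11.1% and 7.49% of all tested genes, and their median log2 fold change was 0.023 where that of all tested genes was 0.0022. The 2 were MYORG and DCTN3. MYORG, a glycosidase-like gene, lies 21.3 kb beyond the 3′ end of FAM219A on the same strand and is the nearest tested gene. It had 1.87, 1.73 and 2.50 CPM in the knockdown replicates, against 1.496, 1.545 and 1.338 CPM in the scrambled replicates. Its log2 fold change was 0.48 (SE 0.14, adjusted p = 0.0188 in edgeR), and 0.30 with adjusted p = 0.108 without knockdown replicate 3. Without scrambled replicate 1 or 3 the adjusted p of MYORG was 0.0544 and 0.0810, and it was 0.0576 in DESeq2.

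DCTN3, a dynactin subunit gene, lies 155 kb from FAM219A on its upstream side. It had 22.5, 22.5 and 21.1 CPM in the knockdown replicates, against 18.2, 17.9 and 18.1 CPM in the scrambled replicates, and its log2 fold change was 0.29 (SE 0.044, adjusted p = 8.07e-05 in edgeR). RPP25L, the nearest tested gene on that side at 152 kb, had a log2 fold change of 0.023 (adjusted p = 0.800 in edgeR). DNAI1, whose nearest upstream start is separated from FAM219A by 181 bases, had 1, 3 and 0 counts in the knockdown replicates, against 3, 4 and 0 counts in the scrambled replicates, too few to be tested.

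**Figure D4:**
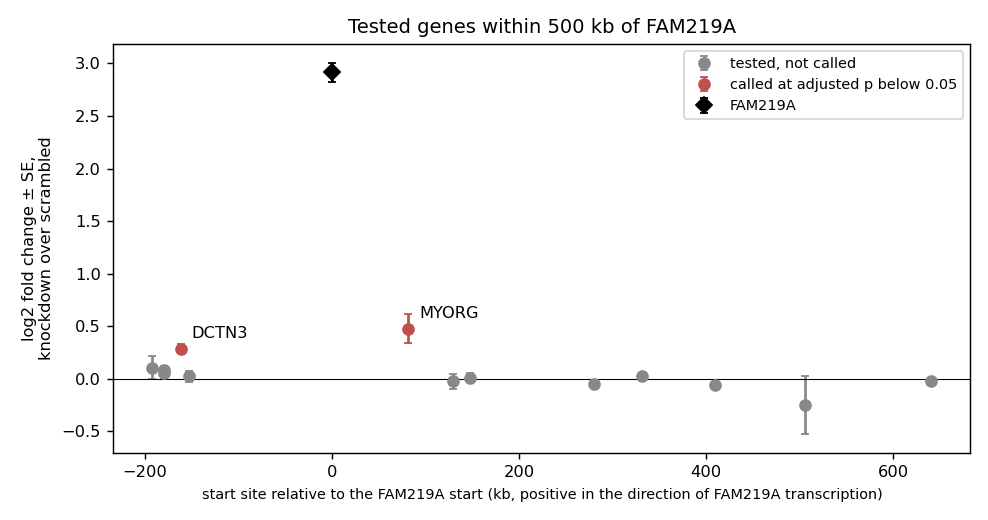
Log2 fold change ± SE of knockdown over scrambled for the 13 tested genes within 500 kb of FAM219A, placed by the distance of their start from the FAM219A start in kb, positive in the direction of FAM219A transcription. FAM219A stands at 2.92, MYORG at 0.48 and DCTN3 at 0.29, and the other 11 genes were not called.

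SASH1 had 0 tested genes within 500 kb. The nearest tested genes were SAMD5, 535 kb away on the lower side, and TAB2, 667 kb away on the higher side. SAMD5, which also encodes a SAM-domain protein, had 20.7 ± 1.16 CPM in knockdown and 16.6 ± 0.617 CPM in scrambled cells (SD, n = 3 each). Its log2 fold change was 0.32 (SE 0.049, adjusted p = 9.26e-05 in edgeR). TAB2, an adaptor of the kinase TAK1, had a log2 fold change of -0.040 (adjusted p = 0.559 in edgeR). For TAB2 the call depended on knockdown replicate 3: without it the log2 fold change was -0.096 (adjusted p = 0.00768), and without libraries 3_2 and 3_3 alone it was -0.069 (adjusted p = 0.0476).

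Genes of the route that SASH1 serves as a scaffold, from Toll-like receptor 4 through TRAF6 and TAK1 to the IκB kinases, were looked at as a list. Of 16 genes listed 15 were tested, 2 rose and 1 fell, with a median log2 fold change of 0.041 against 0.0022 over all tested genes. These counts of 2 and 1 are near the background shares of 11.1% raised and 7.49% lowered. The receptor gene TLR4 had 5 counts in all libraries together and did not pass the filter. MYD88, the adaptor of the receptor, had 38.6 ± 0.428 CPM in knockdown and 34.2 ± 0.484 CPM in scrambled cells (SD, n = 3 each) and rose by 0.17 on the log2 scale (adjusted p = 0.00125 in edgeR). IRAK2, a receptor-associated kinase gene, had a log2 fold change of 0.30 (adjusted p = 0.00192). UBE2V1, the partner of the ubiquitin-conjugating enzyme UBE2N, had -0.23 (adjusted p = 0.00739), a gene that can share reads with a readthrough transcript. TRAF6 and MAP3K7, which encodes TAK1, stood at -0.044 and 0.0041 and did not pass. When GC content was corrected for, and likewise when knockdown libraries 3_2 and 3_3 were left out, 2 rose and 3 fell.

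Other reported partners of SASH1 and SAMSN1 were CRKL, an adaptor phosphorylated by BCR-ABL1, the actin regulator CTTN, GNAS, SAP30 and HDAC1. Of these 5 genes 0 rose and 1 fell, with a median of -0.061, where 11.1% of all tested genes were raised and 7.49% lowered. CRKL had 785 ± 4.43 CPM in knockdown and 822 ± 3.00 CPM in scrambled cells and fell by 0.065 on the log2 scale (adjusted p = 0.0385 in edgeR). Without scrambled replicate 1, 2 or 3 its adjusted p was 0.141, 0.171 or 0.115, without knockdown replicate 1 or 2 it was 0.0952 or 0.123, and with library totals alone or no count filter 0.0884 or 0.0554. With GC correction 1 of the 5 rose and 2 fell. Genes for 14-3-3 proteins, which SASH3 binds, had 1 raised and 0 lowered of 7, with a median of -0.0022, again beside background shares of 11.1% and 7.49%. The raised gene was SFN, with 1.46 ± 0.330 CPM in knockdown and 1.01 ± 0.0348 CPM in scrambled cells (log2 fold change 0.53, adjusted p = 0.0252 in edgeR). SFN did not pass in DESeq2 (adjusted p = 0.0782), nor without knockdown replicate 2 (0.193) or scrambled replicate 1, 2 or 3 (0.0897, 0.0518 and 0.0641).

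Genes of the MST kinases and the Hippo pathway, of which MST1 is a reported partner of SASH3 in mouse lymphocytes, had 0 raised and 0 lowered of 8 tested in edgeR and 0 called in DESeq2, where edgeR called 18.6% of all tested genes. At an unadjusted p below 0.05 in edgeR there were 2. LATS2 had the smallest p, with a log2 fold change of 0.25 (adjusted p = 0.0620 in edgeR), and STK4, the gene of MST1, stood at 0.027. When GC content was corrected for, and likewise when knockdown libraries 3_2 and 3_3 were left out, 2 of the 8 were raised and 1 lowered.

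**Figure D5:**
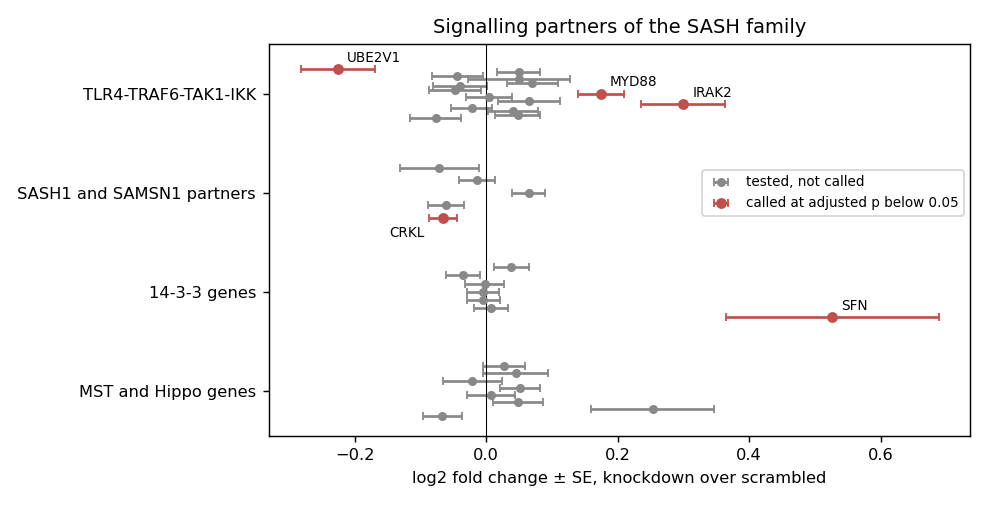
Log2 fold change ± SE of knockdown over scrambled for the tested members of 4 lists of signalling partners, with genes called at an adjusted p below 0.05 in red. The called genes run from -0.23 (UBE2V1) to 0.53 (SFN).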

How the data were processed

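Per the submitters' processing notes, reads were trimmed, aligned and counted by the authors with tools named as featureCounts, STAR and Trim Galore, on GRCh38. Their versions, the annotation and whether strand was used: not given in the sources used here. Whole-number counts per gene symbol, with no normalization, make up the deposited table. Technical libraries were summed by the first number of the library name, giving 3 against 3 samples; 0 column pairs were identical.

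The test was edgeR 4.0.16's robust quasi-likelihood test in R 4.3.3, after the filterByExpr count filter and TMM scaling, with Benjamini-Hochberg adjustment over all 15678 genes that passed. CPM used TMM-scaled library sizes, log2 CPM a prior count of 2, and SEs came from the F statistic. Alternatives were DESeq2 1.42.0, other scaling factors, no count filter, the replicate number as a block, libraries entered singly, summed by the second number or without knockdown 3_2 and 3_3, a lowess GC correction (span 0.3, GC content for 96.4% of tested genes), and each replicate left out. The fit was tested on simulated data.

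Members, gene lists and settings were chosen with earlier results of these data known. Genes named were the members, PCMTD1, the rise ranked next, called list members (at most 3 per list by smallest p, otherwise the smallest p), called and nearest tested neighbours of FAM219A and SASH1, and the nearest profiles; other genes named (MPI, DNAI1, SAMSN1-AS1, TLR4, TRAF6, MAP3K7, STK4, MS4A1 and CD5) were chosen after their values were seen. One lymphoid marker that the rule would name is not reported here. Annotation was GENCODE 29, with exon length from its basic set. All 5 members matched the RefSeq promoter table. Tables and plots were made in Python 3.11.15 with pandas 2.3.3 and matplotlib 3.10.9.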

Additional observations from a re-analysis of the deposited data

Results flagged for a closer look

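PCMTD1 in scrambled library 3_1 stood apart from the other 8 scrambled libraries, at 24.1 CPM where the next highest had 21.3 CPM. The gap was 0.501 of the range of the 9 libraries, past Dixon's 95% critical value. This was 1 of 10 sets of 9 libraries examined (FAM219A, FAM219B, SASH1, SAMSN1 and PCMTD1 in each group), and chance flags about 1 set in 20.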

How the results depend on the processing

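FAM219B kept its direction and its side of the threshold under all 15 alternatives, between -0.21 and -0.15 with adjusted p from 4.56e-07 to 0.0217. SAMSN1 passed under none, and its sign turned without knockdown replicate 3 (-0.0025 to 0.062 over the replicates left out), as did that of RPP25L without knockdown replicate 2 (-0.0086 to 0.048). SASH3 was removed by the count filter, and without the filter edgeR gave -0.27 on the log2 scale (SE 1.29). The count of raised genes ran from 1127 to 2482 and that of lowered genes from 623 to 2280 when a replicate was left out, which also leaves fewer samples. Lowered genes numbered 2036 with libraries entered singly and 2389 when summed by the second number. They numbered 2426 without knockdown libraries 3_2 and 3_3 and 2670 with GC correction, and the cause was not tested. As the names are read here, single entry treats technical libraries as replicates and summing by the second number mixes the replicates. Neither setting measures the spread between replicates. With the replicate block 2213 were raised and 1772 lowered. The correlation of same-numbered samples' deviations was 0.0302, 0.0114 and 0.0113, and knockdown replicate 3 correlated best with scrambled replicate 2 (0.0267). With 3 samples per group these values cannot tell whether same-numbered samples were paired. Of the erythroid markers 7 were raised without knockdown libraries 3_2 and 3_3, 6 with GC correction and 2 in 5 of the 6 settings that leave out a replicate. Depth limits SASH3, TLR4 and DNAI1.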
